A study of Homo sapiens with 12 samples.

Results

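Liver cancer stem and progenitor markers are the genes used to recognise hepatic progenitor cells and the stem-like cells of hepatocellular carcinoma. 10 of them were followed here by name through 6 lists of RNA binding peaks, out of 10830 gene names that appeared in any list. They were the surface proteins EPCAM, PROM1 (CD133) and CD24, the epithelial keratins KRT19, KRT8 and KRT18, the transcription factors SOX9 and SOX4, the heparan sulphate proteoglycan GPC3, and DLK1, a transmembrane protein of fetal liver. A gene counted as bound in a list when at least 1 peak carried its name. The rule for members used names and no measured value, but the members were chosen with earlier results of these data known. All 10 had a peak in at least 1 list, as did 10725 (53.6%) of 20007 protein-coding genes, and together they held 106 peaks.

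The peaks came from RNA immunoprecipitation sequencing (RIP-seq) of METTL16, eIF3a and eIF3b in HepG2, a human liver cancer cell line. HepG2 cells had been made to express 3xFlag-METTL16, 3xFlag-eIF3a or 3xFlag-eIF3b stably, were cross-linked with ultraviolet light, and yielded 2 RIP samples and 2 input samples per protein, 12 in all, with no other treatment. By the sample labels, precipitation used an anti-Flag antibody for METTL16 and eIF3b and an anti-eIF3a antibody for eIF3a, although the deposited eIF3a lists are named for Flag. An anti-eIF3a antibody can also bring down the cells' own eIF3a. If the labels hold, antibody and protein cannot be told apart in comparisons with eIF3a. All groups shared the cell line and the overexpression of the tagged protein, no untagged cells were analysed here, and a list from IgG precipitation was not analysed here. The question was which of these marker transcripts each protein bound, where along the transcript, and how strongly over input.

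METTL16 is an RNA methyltransferase that places N6-methyladenosine (m6A) on a few structured RNAs, among them U6 small nuclear RNA and the MAT2A transcript, and it is also present in the cytoplasm. eIF3a and eIF3b are core subunits of eIF3, the large initiation factor that helps the small ribosomal subunit load onto messenger RNA. RIP reads a protein's contact with a transcript, direct or through a shared complex, and an enrichment over input takes the abundance of the transcript into account. Reading depth was not given in the lists, so a gene without a peak was not called at that depth and may still have been bound.

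The coding bases of a marker that lay under a peak in the most lists are printed below. They are read 5′ to 3′ on the transcript strand of GRCh38 and taken from the GENCODE canonical transcripts. Only stretches of at least 50 bases in at least 4 lists are printed. EPCAM, PROM1 and CD24 had none, and the SOX4 bases in 5 lists were too few. The stretches let a reader see which part of the coding sequence those lists had in common. Capitals mark a start codon or a stop codon. SOX9 bases in all 6 lists were at chr17:72121467-72121556 in exon 1 and at chr17:72124274-72124387 in exon 3. SOX4 bases in at least 4 lists were at chr6:21594535-21594609 and chr6:21595327-21595536 in its single exon. KRT8 bases in 5 lists were at chr12:52897428-52897541 in exon 8, KRT18 bases in 5 lists at chr12:52951846-52951856 and chr12:52952119-52952226 in exons 5 and 6, and KRT19 bases in 4 lists at chr17:41524843-41524909 and chr17:41524519-41524540 in exons 3 and 4. GPC3 bases in 5 lists were at chrX:133985378-133985449 in exon 1 and chrX:133536134-133536253 in exon 8, and DLK1 bases in 5 lists at chr14:100734466-100734555 in exon 5.
SOX9 exon 1: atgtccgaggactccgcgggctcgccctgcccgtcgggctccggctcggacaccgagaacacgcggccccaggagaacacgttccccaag
SOX9 exon 3: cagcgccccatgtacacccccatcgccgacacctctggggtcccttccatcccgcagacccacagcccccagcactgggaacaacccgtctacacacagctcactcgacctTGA
SOX4 start: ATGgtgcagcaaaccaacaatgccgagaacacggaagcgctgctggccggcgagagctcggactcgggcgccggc
SOX4 middle: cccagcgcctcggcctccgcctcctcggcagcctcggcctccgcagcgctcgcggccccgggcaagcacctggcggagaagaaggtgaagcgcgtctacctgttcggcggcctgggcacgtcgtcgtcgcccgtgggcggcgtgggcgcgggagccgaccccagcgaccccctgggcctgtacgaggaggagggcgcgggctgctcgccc
KRT8 exon 8: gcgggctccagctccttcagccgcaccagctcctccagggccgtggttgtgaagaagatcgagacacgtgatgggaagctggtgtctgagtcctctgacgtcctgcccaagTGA
KRT18 exons 5 and 6: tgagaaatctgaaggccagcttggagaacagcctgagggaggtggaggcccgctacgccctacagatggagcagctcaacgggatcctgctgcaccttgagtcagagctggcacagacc
KRT19 exons 3 and 4: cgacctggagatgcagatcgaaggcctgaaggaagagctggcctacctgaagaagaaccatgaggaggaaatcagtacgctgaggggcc
GPC3 exon 1: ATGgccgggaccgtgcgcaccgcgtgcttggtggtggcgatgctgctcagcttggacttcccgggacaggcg
GPC3 exon 8: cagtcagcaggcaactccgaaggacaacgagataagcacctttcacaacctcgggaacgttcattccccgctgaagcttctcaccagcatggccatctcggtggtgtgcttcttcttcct
DLK1 exon 5: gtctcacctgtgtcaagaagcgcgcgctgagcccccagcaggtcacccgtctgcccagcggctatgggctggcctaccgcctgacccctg
These stretches varied in base composition. The SOX4 stretches were 66.7% and 77.1% G and C, the 2 SOX9 stretches 71.1% and 64.0%, and the GPC3 exon 8 stretch 54.2%. The stretches at exon 3 of SOX9 and exon 8 of KRT8 end in the stop codon, and those of GPC3 exon 1 and the start of SOX4 begin at the start codon. No stretch held ACAGAGA, the letters at the heart of the METTL16 sites in U6 and MAT2A.

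The 6 lists held between 12921 and 21733 peaks on 5226 to 8166 named genes, with a median exonic width of 180 to 210 bases and a median fold enrichment of 2.73 to 3.40. The second eIF3a list stood apart for the markers: it named 1 of 10, SOX9, although its 12921 peaks were close to the 13136 of the second METTL16 list, which named 8. Values that rest on it are therefore given with and without it. HepG2 identity can be read in the lists only through peaks: among 12 hepatocyte and HepG2 genes, 11 had a peak in at least 1 list and TTR had none, while ALB had a peak in 1 list. Of 6 markers of blood, endothelium and fibroblasts, 4 had a peak and COL1A1 and COL3A1 had none, where 53.6% of all protein-coding genes had one. The endothelial marker VWF was in 5 lists, with folds of 35.8 and 33.4 in the METTL16 lists. A peak measures enrichment over input, not the amount of a transcript in the cells, so these counts do not establish identity.

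Between 7 and 8 of the markers were named in 5 of the 6 lists. Both METTL16 lists named the same 8 (EPCAM, KRT19, KRT8, KRT18, SOX9, SOX4, GPC3 and DLK1), where 29.0% and 31.4% of 20007 protein-coding genes had a peak. The eIF3b lists named 8 and 7, where the background was 40.0% and 37.6%. The eIF3a lists named 8 and 1, against 40.5% and 25.9%. The share of markers was above the share of all genes in 5 of 6 lists, and below it in the second eIF3a list. Since all 10 had a peak somewhere, the genes with a peak in any list are a closer background, and there the shares were 54.0% and 58.6% for the METTL16 lists, 75.5% and 48.3% for the eIF3a lists, and 74.6% and 70.1% for the eIF3b lists. Against these, the 8 of 10 in each METTL16 list were above the background, the 8 and 7 of 10 in the eIF3b lists and the 8 of 10 in the first eIF3a list were close to it, and the 1 of 10 in the second eIF3a list was below it. As the members were chosen with earlier results of these data known, these counts are a description.

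Required in both replicates, 8 markers were bound by METTL16, 6 by eIF3b (KRT8, KRT18, SOX9, SOX4, GPC3 and DLK1) and 1 by eIF3a (SOX9). The matching shares of all protein-coding genes were 22.9% for METTL16, 32.2% for eIF3b and 22.8% for eIF3a. These were 4584, 6448 and 4563 genes, to be set against the closer background of 10725 genes with a peak in any list. On that background the 6 of 10 for eIF3b was close to the share of all genes. The 8 of 10 for METTL16 was above it and the 1 of 10 for eIF3a below it. With the first eIF3a list alone the eIF3a count was 8. SOX9 was the single marker in all 6 lists. SOX4, KRT8, KRT18, GPC3 and DLK1 were each in 5 lists, absent in every case from the second eIF3a list. KRT19 was in 4 lists, EPCAM in 3, and PROM1 and CD24 in 1 each.

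The number of markers per list was 8 ± 0 (SD, n = 2) for METTL16, 4.5 ± 4.95 for eIF3a and 7.5 ± 0.707 for eIF3b. METTL16 lists thus named 3.5 more than eIF3a lists and 0.5 more than eIF3b lists, and eIF3a lists 3 fewer than eIF3b lists, with p = 1 for each of these differences by an exact two-sided permutation test over lists. Without the second eIF3a list the first of these differences was 0, and eIF3a named 0.5 more than eIF3b. With 2 lists against 2, the smallest p this test can give is 0.333, so no difference here could have passed. The differences that involve eIF3a were smaller than the spread between its own 2 lists, and that between METTL16 and eIF3b was smaller than the SD of eIF3b.

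Peaks covered 14.6% and 19.1% of the 10 markers' exon bases in the METTL16 lists, 12.8% and 3.08% in the eIF3a lists, and 16.4% and 13.8% in the eIF3b lists. METTL16 and eIF3a did not overlap in this share, nor did eIF3a and eIF3b, whereas METTL16 and eIF3b did. The same share over all genes was not computed, so these values describe the markers without a background. The mean difference was 8.88 percentage points for METTL16 over eIF3a (exact permutation p = 0.333, the smallest possible), 1.71 for METTL16 over eIF3b (exact permutation p = 0.667) and -7.17 for eIF3a minus eIF3b (exact permutation p = 0.333). Adjusted over the 6 comparisons made, every p was 1. Without the second eIF3a list the difference from METTL16 was 4 points and that from eIF3b -2.30 points.

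**Figure D1:**
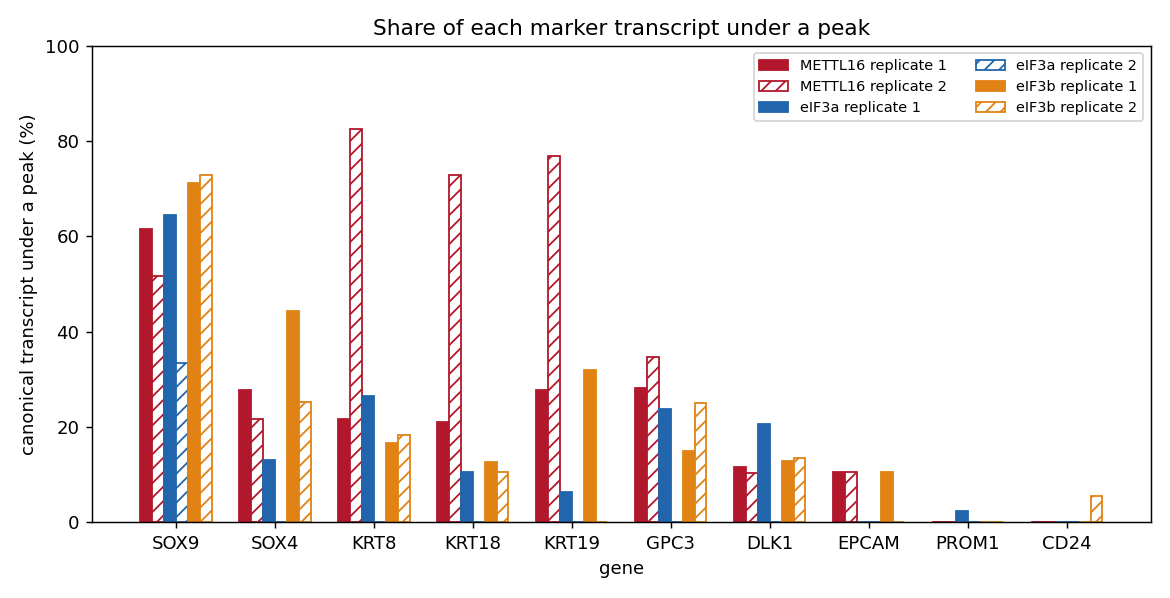
Share of each marker's canonical transcript under a peak, in percent, with 1 bar per list (filled, replicate 1; hatched, replicate 2; METTL16 red, eIF3a blue, eIF3b orange). SOX9 lies between 33.4% and 72.9% in all 6 lists, and the 3 keratins reach 72.8% to 82.6% in the second METTL16 list only.

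SOX9 and SOX4 are HMG-box transcription factors; SOX9 marks bile duct and progenitor cells, and SOX4 is active in the developing biliary tree. SOX9 lies at chr17:72121020-72126416 on the plus strand, with 3 exons and 3931 transcribed bases, of which 1530 are coding and 2029 are 3′ UTR. Its peaks were the most extensive of any marker outside the second METTL16 list: they covered 61.5% and 51.6% of the transcript in the METTL16 lists, 64.5% and 33.4% in the eIF3a lists, and 71.3% and 72.9% in the eIF3b lists. The transcript was thus covered over most of its coding region in 5 lists, and more sparsely in the second eIF3a list.

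The highest fold enrichment on SOX9 was 4.66 and 6.32 in the METTL16 lists, 10.2 and 2.77 in the eIF3a lists and 4.41 and 6.81 in the eIF3b lists. The 3 proteins overlapped, and the widest gap between replicates was within eIF3a. A shared layout was visible: a peak in or over the start of the coding region, another across the stop codon, another in the middle of the 3′ UTR and, in 5 of 6 lists, a last peak that began at transcript base 3398. The second METTL16 list joined the coding peaks into 1 peak of 1759 bases and had no peak at that last position. 568 bases, 14.4% of the transcript, lay under a peak in all 6 lists, and 2238 bases, 56.9%, in at least 5.

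The peak at the stop codon held the highest fold on SOX9 in 5 of 6 lists. In the first eIF3a list it ran from transcript base 1550 to 2355 with a fold of 10.2, against 2.75 for the peak over the start of the coding region. In the second eIF3a list the corresponding values were 2.77 and 1.23. In the second METTL16 list the 2 places could not be separated, since a single peak with a fold of 6.32 spanned both. Replicates shared 2625 bases in eIF3b, which were 93.6% of the first list's peaks and 91.7% of the second's, 1760 bases in METTL16 (72.8% and 86.8%), and 1284 bases in eIF3a (50.6% and 97.7%).

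SOX4 is a single-exon gene at chr6:21593751-21598619 on the plus strand, 4869 bases long with 1425 coding bases and 2660 bases of 3′ UTR. It carried the highest fold of all markers in both METTL16 lists and both eIF3b lists. The highest fold was 17.9 and 35.7 for METTL16, 13.2 in the first eIF3a list, and 23.3 and 25.0 for eIF3b, with no peak in the second eIF3a list. The METTL16 and eIF3b values overlapped. A lncRNA, ENSG00000283480, overlaps its exon in the annotation, and whether strand was used in counting is not stated, so reads of the 2 genes may not have been separated.

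By p-value the SOX4 peaks sat in the middle of their lists, whatever their fold. The smallest p on SOX4 was 1.7e-08 and 1.2e-07 in the METTL16 lists, 7.6e-07 in the first eIF3a list, and 7.1e-10 and 2.3e-06 in the eIF3b lists. Its 35.7-fold peak, 211 coding bases in the second METTL16 list, was overlapped in the first METTL16 list by its 17.9-fold peak. At least 4 lists had a peak over 210 coding bases, 91 bases of the 3′ UTR, 271 bases further along it, and 151 bases around the start codon, but 5 lists met at 3 bases in all. The strongest SOX4 peak of the first eIF3a list, 181 bases at the far end of the 3′ UTR, had no counterpart in another list.

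**Figure D2:**
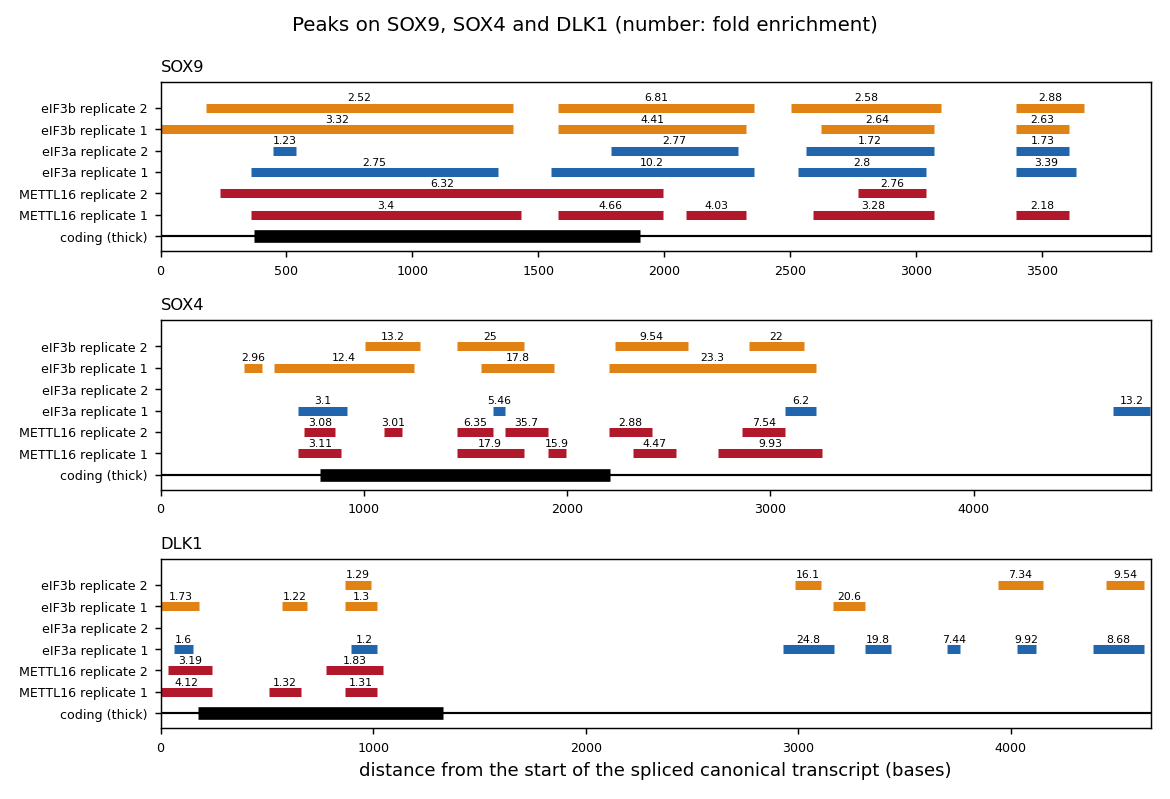
Peaks along the spliced canonical transcripts of SOX9, SOX4 and DLK1 in the 6 lists, as bars against distance from the transcript start in bases, with fold enrichment over each bar and the coding region as a thick black line. SOX9 bars recur at the same places in most lists, while DLK1 bars in the distal 3′ UTR appear in the first eIF3a list and both eIF3b lists and in neither METTL16 list.

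DLK1 is a non-canonical Notch ligand that is high in fetal liver and in hepatoblasts. The gene lies at chr14:100725705-100738224 on the plus strand with 5 exons, and 3328 of its 4657 transcribed bases are 3′ UTR. METTL16 peaks lay at its 5′ end and in its coding region: the exon 1 peak, which covers the start codon, had a fold of 4.12 and 3.19, and coding peaks had folds from 1.31 to 1.83. The METTL16 lists placed no peak in the 3′ UTR.

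By fold, the eIF3 lists had the reverse emphasis on DLK1. Over 1000 bases beyond the stop codon, the first eIF3a list had 5 peaks with folds of 7.44 to 24.8, the first eIF3b list 1 peak with a fold of 20.6 and the second eIF3b list 3 peaks with folds of 7.34 to 16. All of these 3′ UTR peaks were between bases 1598 and 3298 after the stop codon, and the METTL16 lists held 0 peaks there. At exon 1 the folds were 1.60 in the first eIF3a list and 1.73 in the first eIF3b list, below both METTL16 values, and the second eIF3b list had no exon 1 peak. Coding peaks had folds of 1.2 in the first eIF3a list, 1.22 and 1.3 in the first eIF3b list and 1.29 in the second. The second eIF3a list named no DLK1 peak.

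Support for the far DLK1 peaks was modest: their p-values ran from 5e-07 to 0.0012 in the first eIF3a list, and were 2.2e-05 for the peak in the first eIF3b list and 0.00032 to 0.00063 in the second. In the eIF3b lists the smallest peak p-value on DLK1 lay elsewhere, 1e-11 at exon 1 in the first and 1.7e-07 in the coding region in the second. In the first eIF3a list it was at a far peak. Each of the 3 far peaks of the second eIF3b list overlapped a peak of the first eIF3a list, at chr14:100736554-100736673, chr14:100737508-100737717 and chr14:100738015-100738194. The far peak of the first eIF3b list, chr14:100736733-100736882, overlapped none of those 3 and lay between 2 eIF3a peaks, chr14:100736494-100736733 and chr14:100736882-100737001, meeting each at its edge. Over all DLK1 peaks, the first eIF3a and second eIF3b lists shared 480 bases, 50% of the former's and 76.2% of the latter's. The eIF3b replicates shared 120 bases of DLK1 peaks, 20% of the first list's and 19.0% of the second's, and 359 bases were shared by the METTL16 replicates (63.1% and 74.9%). The highest DLK1 fold in each METTL16 list was below both eIF3b lists, which at 20.6 and 16 rest on these 3′ UTR peaks.

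KRT8, KRT18 and KRT19 are intermediate filament proteins of simple epithelia; KRT8 and KRT18 pair in hepatocytes, and KRT19 marks bile duct and progenitor cells. They carried low folds in every list in which they had a peak. The highest fold on KRT8 was 1.84 and 2.57 in the METTL16 lists, 1.70 in the first eIF3a list, and 1.77 and 1.46 in the eIF3b lists. On KRT18 it was 1.54 and 2.26, then 1.29, then 1.29 and 1.30, in the same order. On KRT19 it was 1.95 and 2.91 for METTL16, 1.31 in the first eIF3a list and 2.02 in the first eIF3b list. For KRT8 and KRT18 both METTL16 values were above both eIF3b values, and for KRT19 the eIF3b value fell between the METTL16 values.

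Most keratin peaks sat in the same exons across proteins. KRT8 (chr12:52897187-52949954, minus strand) had a peak over the stop codon in exon 8 in 5 lists, with 207 bases in common, and a peak over exons 4 and 5 in 4 of them, part of a longer peak in the second METTL16 list, while the first eIF3b list had a peak in exon 6 instead. KRT18 (chr12:52948871-52952906, plus strand) had a peak over exons 5 and 6 in 5 lists, with 119 bases in common, and a peak in exon 1 in both METTL16 lists and the first eIF3b list. KRT19 (chr17:41523617-41528308, minus strand) had a peak over exons 3 and 4 in 4 lists, with 89 bases in common, and one in exon 1 in both METTL16 lists and the first eIF3b list. In the second METTL16 list the KRT8 places were joined into a peak of 1300 bases, beside a peak of 208 bases at exon 1. On KRT18 and KRT19 the places stayed separate but wider, with peaks of 445 and 593 bases and of 501 and 589 bases. Together the peaks of that list covered 82.6%, 72.8% and 76.8% of the KRT8, KRT18 and KRT19 transcripts, against 21.6%, 21.0% and 27.7% in the first.

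Assignment of keratin reads carries a limit. 51 pseudogenes named after KRT8, 68 after KRT18 and 5 after KRT19 are annotated, and how reads with several matches were handled was not stated. KRT8 and KRT18 also overlap head to head on opposite strands over 525 exon bases, and the KRT18 exon 1 peaks lay on KRT8 exon sequence for 178 bases in the first METTL16 list, 375 in the second and 61 in the first eIF3b list. Where strand was not used, those reads could belong to either gene.

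GPC3 is an oncofetal glypican, abundant in hepatocellular carcinoma and in HepG2. It lies at chrX:133535745-133987100 on the minus strand with 8 exons and had 2 peaks in each of 5 lists, at its opposite ends. The exon 1 peak, which covers the start codon, had a fold of 3.52 and 3.61 in the METTL16 lists, 1.45 in the first eIF3a list, and 2.48 and 1.31 in the eIF3b lists. The peak at the 3′ end of the coding region, in exon 8 and in 4 of the 5 lists reaching back to exon 6 or further, had a fold of 1.77 and 1.98, then 1.44, then 1.32 and 1.60. At both ends the METTL16 folds were above those of every other list. Of the 5-list bases, 180 lay at the start codon and 120 in exon 8, with no peak called over the coding exons between exon 1 and exon 5.

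**Figure D3:**
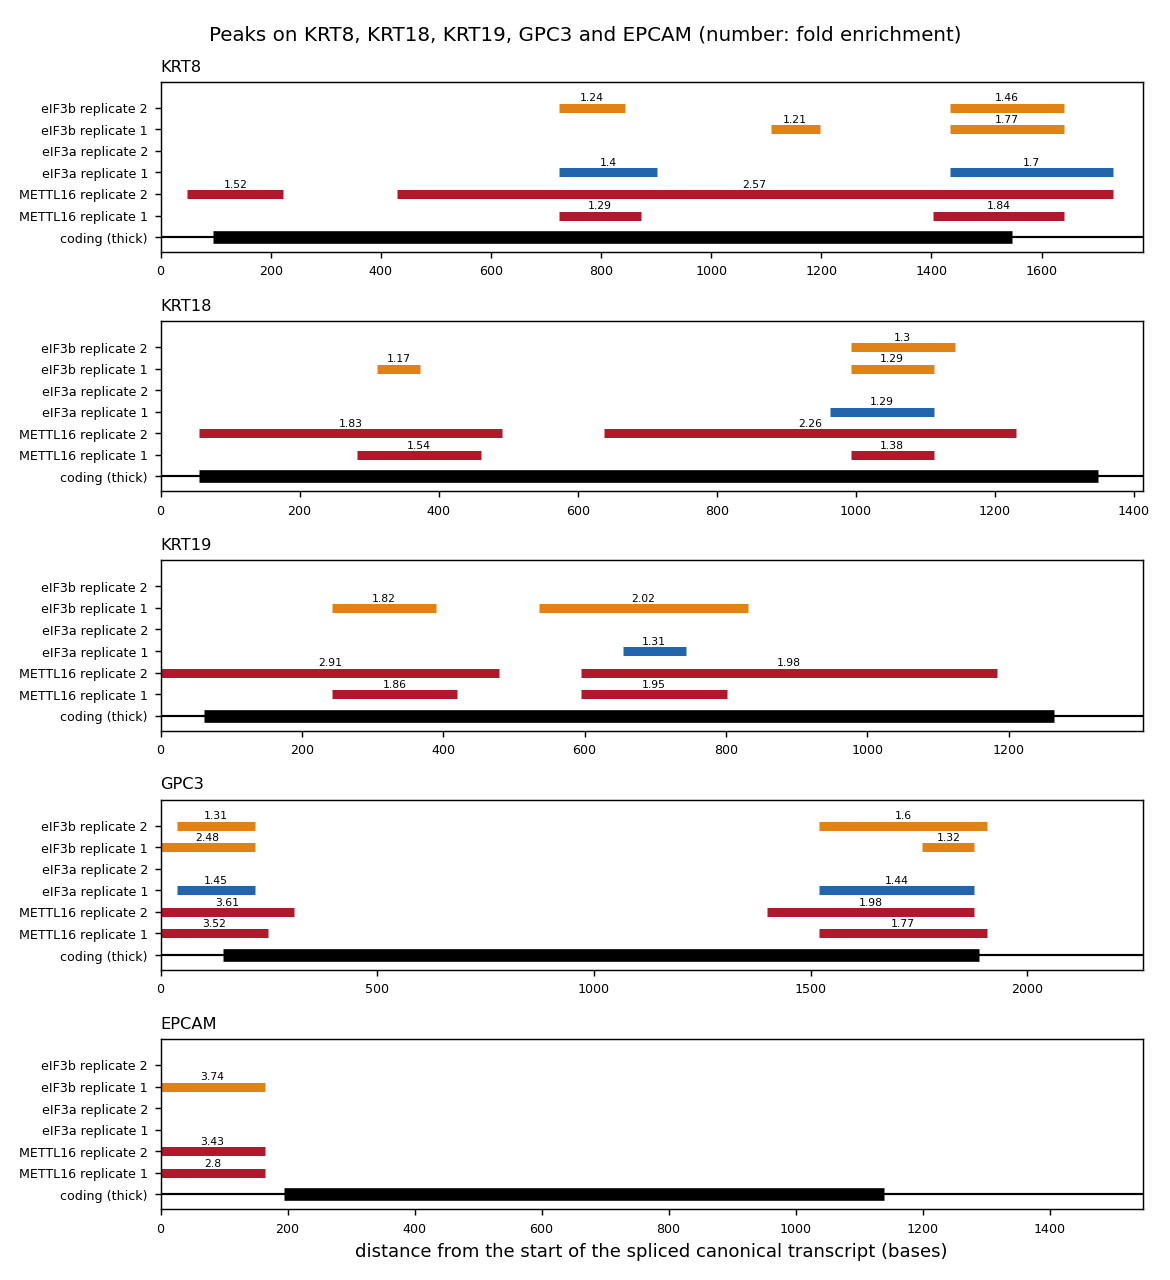
Peaks along the spliced canonical transcripts of KRT8, KRT18, KRT19, GPC3 and EPCAM in the 6 lists, drawn as bars against distance from the transcript start in bases, with the fold enrichment over each bar and the coding region as a thick black line. GPC3 has bars at its 2 ends and none between, and EPCAM has bars at its 5′ end alone.

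The 3 surface markers had the fewest peaks. EPCAM, an epithelial adhesion molecule, had a peak on the 5′ UTR of exon 1 in both METTL16 lists and the first eIF3b list, with folds of 2.80, 3.43 and 3.74. It was at chr2:47369296-47369474 in both METTL16 lists and at chr2:47369237-47369474 in the eIF3b list, and covered 164 bases of exon 1 in each. It reached 15 bases upstream of canonical exon 1 in the former and 74 in the latter, off any annotated EPCAM exon. PROM1, a pentaspan membrane glycoprotein, had 1 peak of 91 coding bases in exon 2, chr4:16075812-16075902, in the first eIF3a list, with a fold of 3.83 and a peak p-value of 4e-04. CD24, a small glycosylphosphatidylinositol-anchored glycoprotein, had 1 peak of 120 bases in its 3′ UTR, chr6:106970814-106970933, in the second eIF3b list, with a fold of 2.48 and a peak p-value of 0.0026. The PROM1 and CD24 peaks were not repeated in the other replicate, and 4 annotated pseudogenes are named after CD24.

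Peaks on exon 1 were frequent among the markers in the METTL16 lists. Of the multi-exon markers with a peak, 6 of 7 in the first METTL16 list and 7 of 7 in the second had a peak touching exon 1, where 30.2% and 32.5% of all multi-exon genes with a peak did. In the eIF3b lists it was 6 of 7 and 2 of 6, against 38.0% and 28.2%, and in the eIF3a lists 3 of 7 and 1 of 1, against 25.3% and 17.2%. The 2 eIF3b replicates thus differed more between themselves than the METTL16 lists did from the first of them. A marker with a long exon 1, such as SOX9 with 803 bases, is more easily touched than PROM1 with 46, and no test was made.

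By region, 56 of the 106 marker peaks had their centre in coding sequence, 36 in the 3′ UTR and 14 in the 5′ UTR. Across all peaks of a list the shares were 57.5% to 69.5% in coding sequence, 24.1% to 38.4% in the 3′ UTR and 2.97% to 7.49% in the 5′ UTR. The 14 marker peaks centred in a 5′ UTR came from 5 lists. Peaks on markers were of ordinary size: their median exonic width was 179 to 269 bases in 5 lists and 358 in the second eIF3a list, where 4 SOX9 peaks make it up, and their median fold was 1.73 in that list and 2.48 to 3.25 elsewhere.

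6 markers had a peak in each of the 4 METTL16 and eIF3b lists. Of these, 3 (KRT8, KRT18 and GPC3) had highest folds in both METTL16 lists above both eIF3b lists, and 1 (DLK1) had both below. Over the 3923 genes called in each of the 4, the shares were 18.9% above and 18.7% below. SOX9 and SOX4 overlapped between the proteins. Each list was scaled by its own input, so these are comparisons of enrichment and not of amounts bound, and with 6 genes the counts are a description.

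**Figure D4:**
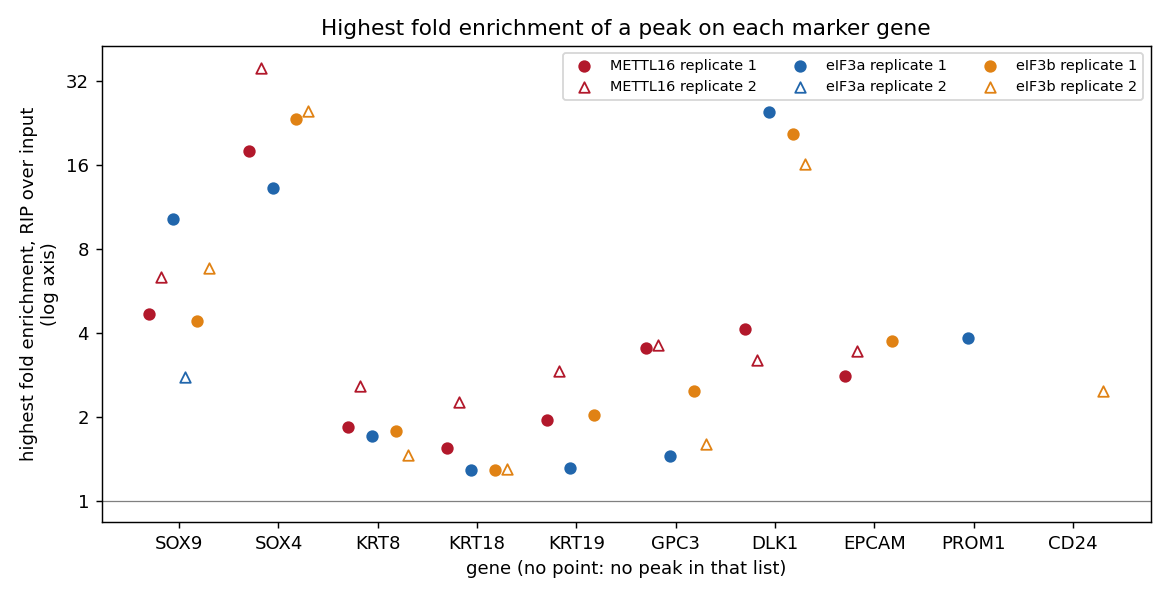
Highest fold enrichment over input of a peak on each marker in each list, on a log axis (filled circles, replicate 1; open triangles, replicate 2; METTL16 red, eIF3a blue, eIF3b orange; a missing point means no peak). SOX4 sits between 13.2 and 35.7, the keratins between 1.29 and 2.91, and DLK1 at 3.19 and 4.12 for METTL16 and from 16 to 24.8 in the first eIF3a list and the eIF3b lists.

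Fold and p-value ordered the markers differently. GPC3 had a smaller p than 91.4% to 99.2% of the genes in each of its 5 lists, reaching a log10 p of -388 in the second METTL16 list, yet in the first eIF3a list its highest fold was above that of 2.11% of genes only. KRT18 in the second eIF3b list was above 0.528% of genes by fold and 70.5% by p. SOX4 was the opposite, above 82.9% to 97.2% of genes by fold and 37.8% to 48.0% by p. SOX9 was high by p and more spread by fold, from 83.5% to 99.0% by p and 34.9% to 79.9% by fold. A p-value of this kind grows smaller with read number as well as with enrichment, and read numbers were not analysed here.

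**Figure D5:**
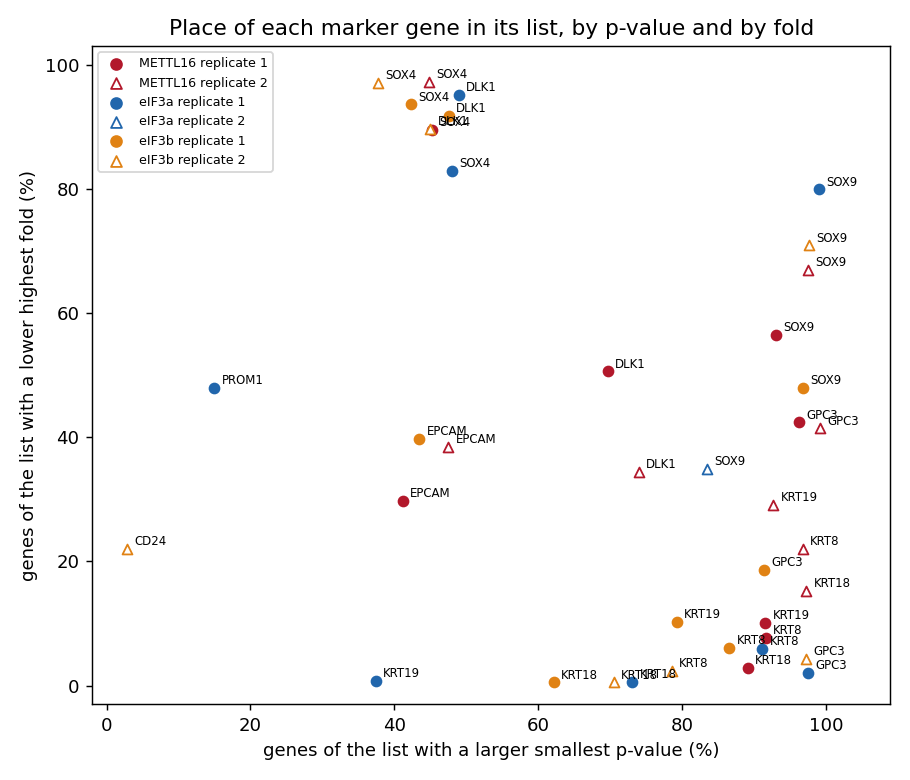
Each point is a marker in a list that named it, placed by the percent of the list's genes with a larger smallest p-value (horizontal) and with a lower highest fold (vertical), coloured red for METTL16, blue for eIF3a and orange for eIF3b, with open triangles for replicate 2. Most keratin points lie low on the right, with KRT19 of the first eIF3a list further left, and GPC3 lies far right, at 41.4% and 42.4% by fold in the METTL16 lists and lower in the others. SOX4 and the DLK1 values of the eIF3 lists lie high in the middle, and SOX9 lies to the right at mid to high folds.

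The motif ACAGAGA was searched on the transcript strand only, within the part of each peak on the canonical transcript. It was in 2 of 19 marker peaks in the second METTL16 list, 1 on KRT8 and 1 on KRT18, and in 0 of 22 in the first. Across all peaks of those lists it was in 3.27% and 3.30%. The KRT8 and KRT18 peaks of the second METTL16 list were 208 to 1300 bases wide, where the median of all its peaks was 180. A part of peak width in these counts was not tested. The other 4 lists held it in 0 marker peaks and in 3.90% to 5.36% of all peaks. Each of the KRT8, KRT18 and SOX4 transcripts holds it once, and the other 7 markers do not hold these letters.

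Related genes were read in the same lists. Of 26 further progenitor, oncofetal and stem markers, 18 had a peak in at least 1 list, 12 were bound by METTL16 in both replicates, 7 by eIF3a and 12 by eIF3b, and 6 were in all 6 lists. Of all protein-coding genes, 53.6% had a peak in any list. The shares bound in both replicates were 22.9% for METTL16, 22.8% for eIF3a and 32.2% for eIF3b. Named in all lists of 1 protein and in no list of another were 4 of the 18 with a peak, a pattern shown by 2037 (19.0%) of the 10725 protein-coding genes with a peak in any list, by 3 of the 11 hepatocyte and HepG2 genes with a peak (AFP, TF and AHSG) and by 1 of the 4 markers of other cells with a peak (PECAM1). AFP, the fetal serum protein, was named in both METTL16 lists alone, with folds of 1.37 and 1.80. BMI1, a Polycomb protein of stem cell self-renewal, was in both METTL16 lists (4.64 and 4.57) and both eIF3b lists (2.33 and 2.60) and in no eIF3a list. ABCG2, the efflux pump of side population cells, was in both eIF3a lists (4.13 and 1.49) and 1 eIF3b list (6.36), and NOTCH2, a receptor of biliary fate, in the first eIF3a list (4.28) and both eIF3b lists (8.24 and 5.51), and neither was in a METTL16 list.

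The families of the members were small, and their counts stand beside the 53.6% of all protein-coding genes with a peak in any list. Of 6 other keratins, KRT80 alone had a peak, with folds of 5.24 in the second METTL16 list and 4.46 and 14.7 in the eIF3b lists. Of 6 other SOX genes, 4 had a peak, and SOX6 was in both eIF3a lists (3.94 and 28.1) and both eIF3b lists (3.36 and 14.7) and in no METTL16 list. Of 5 other glypicans, 3 had a peak, and GPC6 was likewise in both eIF3a lists (3.31 and 3.33) and both eIF3b lists (3.51 and 3.15) and in no METTL16 list. The second eIF3a list thus named SOX6 and GPC6 while naming neither SOX4 nor GPC3.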

How the data were processed

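RIP-seq of HepG2 cells gave 12 samples: 2 RIP and 2 input samples for each of METTL16, eIF3a and eIF3b, described as biological replicates. Alignment by the authors was with STAR on GRCh38, and exomePeak with its default settings gave the peaks (versions, gene annotation and use of strand are not given in the sources used here). Libraries came from a stranded kit after removal of ribosomal RNA. The authors deposited 1 peak list per RIP sample. Each deposited peak has a p-value, its log10 as a score, and a ratio, the fold enrichment of RIP over input. The largest p-value in any list was 0.01. Values were used as deposited. Files holding counts were not analysed here, so depth is unknown and no counting interval is given.

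Peaks were tied to genes by the name in the list. Of 10830 names, 10309 matched a GENCODE release 44 protein-coding symbol, 425 an older symbol in RefSeq, and 96 neither. Peak edges met GENCODE exon edges on GRCh38, except where a marker peak ran past the annotated exons at the 5′ end. Such peaks left the exons by 15 or 74 bases on EPCAM, 29 on GPC3, 27 on DLK1 and 22 on KRT19. Region, exon and transcript position refer to the canonical transcript, and exon shares to all annotated exons of a gene. exomePeak tests windows stepped along a gene, so peak edges of different lists can fall on the same positions. Lists were compared by exact two-sided permutation tests of means with Benjamini-Hochberg adjustment over 6 tests, in Python. The interval code was tested on simulated data. Alternatives were a fold of at least 4, the 5000 peaks of smallest p, at least 50% of a peak on a gene's exons, canonical exons only, a peak in either replicate, a replicate block and leaving out each list. All 10 members are named. Further progenitor markers and other keratins, SOX genes and glypicans are named with values where all lists of 1 protein and no list of another held a peak. The members and lists were chosen with earlier results of these data known.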

Additional observations from a re-analysis of the deposited data

How the results depend on the processing

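Across 12 results and 84 alternative values, 70 were labelled the same, 10 moved and 4 reversed. For differences the same meant an unchanged direction. Counts bound in both replicates have no direction, and there the label took in 8 to 6 for METTL16 and 6 to 4 or 9 for eIF3b. For highest folds it meant a value within 1 SD of the 2 lists. For eIF3a that SD is wide: its highest marker fold averaged 13.8 and was 2.77 without replicate 1 and 24.8 without replicate 2. 2 of those that moved were differences in markers per list that became 0, for METTL16 minus eIF3a without eIF3a replicate 2 and for METTL16 minus eIF3b without eIF3b replicate 2. With a fold of at least 4, METTL16 named 0.5 fewer markers per list than eIF3b (-0.5 against 0.5). Its covered share minus that of eIF3b was then -1.27 percentage points, against 1.71. At that limit no list named a keratin, GPC3 or EPCAM. SOX9 and SOX4 stayed in every METTL16 and eIF3b list. DLK1 stayed in both eIF3b lists but in the first METTL16 list only. The same limit left 2 markers bound in both replicates by METTL16, 0 by eIF3a and 3 by eIF3b. A peak in either replicate, or the list without the second eIF3a replicate, gave 8 for eIF3a. Tying peaks by position changed no count.

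Leaving out 1 list at a time, the difference in markers per list ranged from 0 to 7 for METTL16 minus eIF3a, from 0 to 1 for METTL16 minus eIF3b and from -6.5 to 0.5 for eIF3a minus eIF3b, the last value without eIF3a replicate 2. The difference in covered share ranged from 4 to 13.8 points, from -0.58 (without METTL16 replicate 2) to 3.99 points, and from -12.1 to -2.30 points in the same order. Bound in both replicates, the count without 1 list was 8 for METTL16, 1 to 8 for eIF3a and 7 to 8 for eIF3b. With the 5000 peaks of smallest p, the highest marker fold averaged 5.49 for METTL16 and 5.61 for eIF3b, down from 26.8 and 24.1, as the SOX4 and far DLK1 peaks were outside those 5000.

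The replicate block, which pairs lists by number, gave the same mean differences (3.5, 0.5 and -3 markers, and 8.88, 1.71 and -7.17 points), with exact sign-flip p of 1 for markers and 0.5, 1 and 0.5 for the share. The labels do not say that a number marks a shared batch. With 2 lists per protein no test could pass, and a gene absent from a list is not shown to be unbound.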
